A study of Oryza sativa Japonica Group with 17 samples.

Results

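DREB1G, CBF3 and OsTPP1 are 3 genes of rice known for their response to cold, described here in roots of plants that lacked a cytosolic glutamine synthetase. They were picked by name: a probe set was taken when its 1 annotated gene carried DREB1G, CBF3 or OsTPP1 as its symbol or a synonym. Each gene had 1 such probe set, so 3 of 17905 genes with a probe set of their own, and 3 of the 57258 probe sets tested, were members. DREB1G is locus LOC4330306, CBF3, also called DREB1A, is LOC4347620, and OsTPP1 is LOC4330221. In the RefSeq gene table used for names, CBF3 lies on chromosome 9 next to DREB1H, with DREB1B on the far side of DREB1H, whereas DREB1G and OsTPP1 both lie on chromosome 2 and are not neighbours.

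DREB1 proteins, named CBF in Arabidopsis, are transcription factors of the AP2/ERF class that bind the dehydration-responsive element in the promoters of stress genes. Their transcripts rise soon after plants are chilled, under the control of bHLH factors of the ICE1 type, of MYB factors and of calcium and MAP kinase signalling. OsTPP1 is a trehalose-6-phosphate phosphatase, the enzyme that turns the sugar signal trehalose 6-phosphate into trehalose, and it too is induced by cold in rice seedlings, where an ICE1-type bHLH factor has been shown to activate it.

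Transcript levels were measured in roots of the cultivar Nipponbare, with 1 Affymetrix rice array for each of 17 samples. All plants were grown in hydroponics for 18 days with 1 mM ammonium chloride as the only nitrogen source, under 14 h of light at 26 °C and 10 h of darkness at 23 °C, and the labels name no cold treatment for any group. The groups were wild type (n = 3), plants homozygous for the disruption of OsGS1;2 (called gs1;2 or the mutant, n = 3), and plants of 2 lines disrupted in OsGS1;1. A heterozygote of line NC2373 gave plants homozygous for the insertion (gs1;1, called NC2373 homozygotes, n = 2) and plants without it (called NC2373 null, n = 3). Line ND8037 gave 3 homozygotes and 3 null plants in the same way. No segregated null was listed for gs1;2, so it was set against wild type and against NC2373 null. Samples of 1 group are labelled as biological replicates, and p-values measure their spread, pooled over all 6 groups.

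Each value is an RMA signal as a log2, so that a difference of 1 is a change by a factor of 2. The median signal of an array was 5.37 to 5.41 on the 11 arrays of wild type, gs1;2 and NC2373 and 4.68 to 4.71 on the 6 arrays of ND8037. The sets appear to have been normalized apart, which confounds the line with its array set (their parts cannot be told apart), and levels are compared only within a set. The disrupted genes were low where the labels place the insertion. OsGS1;2 averaged 7.01 in gs1;2 against 12.44 in wild type, and OsGS1;1 averaged 8.75 in NC2373 homozygotes against 12.12 in their null and 8.06 in ND8037 homozygotes against 10.30 in theirs. The 6 root marker genes had a summed signal (log2) of 13.74 to 14.14 in wild type, above every other array of its set, with 13.36 to 13.58 in gs1;2, 13.26 to 13.68 in NC2373 null and 13.17 to 13.32 in NC2373 homozygotes. In ND8037 the sum was 13.32 to 13.37 in the null and 12.75 to 13.14 in homozygotes. Linear signals were added, so LSI1 and LSI2, the root markers of highest signal, weigh most in it. For the 6 shoot or leaf marker genes the summed signal was 11.50 to 12.87 in wild type, 10.58 to 11.73 in gs1;2, 12.89 to 13.56 in NC2373 null, 14.39 to 14.77 in NC2373 homozygotes, 12.67 to 13.17 in ND8037 null and 13.55 to 14.39 in ND8037 homozygotes. CAB2R, the shoot or leaf marker of highest mean signal in every group, weighs most in it, and RBCS-A read only 1.93 to 2.66 over all arrays. Whole roots were measured, so fewer cells of a type and less RNA per cell cannot be told apart.

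The 3 genes were named with their levels in gs1;2, wild type and NC2373 null known. Differences among these groups are therefore given as descriptions with no test. The comparisons of homozygotes with nulls were not used to name them and are tested, but the NC2373 null samples enter both kinds of comparison.

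DREB1G, a cold-responsive member of the DREB1 group, was uniform in wild type. Its signal was 8.87, 8.74 and 8.48 in wild-type samples 627, 628 and 629. In the mutant it was 4.17, 6.73 and 5.16 in samples 354, 355 and 356. Every mutant sample lay below every wild-type sample, with a gap of 1.75 between the nearest samples. NC2373 null samples 152, 153 and 154 gave 5.49, 6.80 and 8.88, and NC2373 homozygote samples 117 and 118 gave 4.19 and 4.87. The null samples thus reached from below mutant sample 355 up to wild type, sample 154 standing level with wild-type sample 627. Mutant samples 354 and 356 lay below all of them. In ND8037 the signal was 3.52, 3.55 and 3.18 in null samples 156, 157 and 158 and 3.84, 3.43 and 3.62 in homozygote samples 123, 124 and 125, and the groups overlapped.

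CBF3, a cold-induced DREB1 factor of rice, gave 10.04, 9.66 and 8.96 in the wild-type samples in the same order. It gave 6.65, 7.67 and 7.27 in gs1;2. No mutant sample came within 1.30 of a wild-type sample. The NC2373 null samples gave 6.25, 7.50 and 8.90, and the NC2373 homozygote samples 6.82 and 7.45. Null sample 152 was the lowest of the 11 arrays of this set, and null sample 154 came within 0.06 of the lowest wild-type sample. The ND8037 samples showed little spread, with 6.20, 6.93 and 6.50 in the null and 6.76, 6.39 and 6.70 in homozygotes.

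OsTPP1 gave 12.16, 11.74 and 10.77 in wild type. It gave 8.95, 9.51 and 9.15 in gs1;2. The lowest wild-type sample stood 1.26 above the highest mutant sample. The signals of the NC2373 null samples were 9.94, 10.50 and 11.07, and those of the NC2373 homozygote samples 8.88 and 10.30. Only the highest null sample, 154, overlapped with wild type, and all 3 null samples lay above all mutant samples. In ND8037 the values were 9.85, 9.48 and 9.91 in the null and 8.90, 9.54 and 9.54 in homozygotes, again overlapping.

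**Figure D1:**
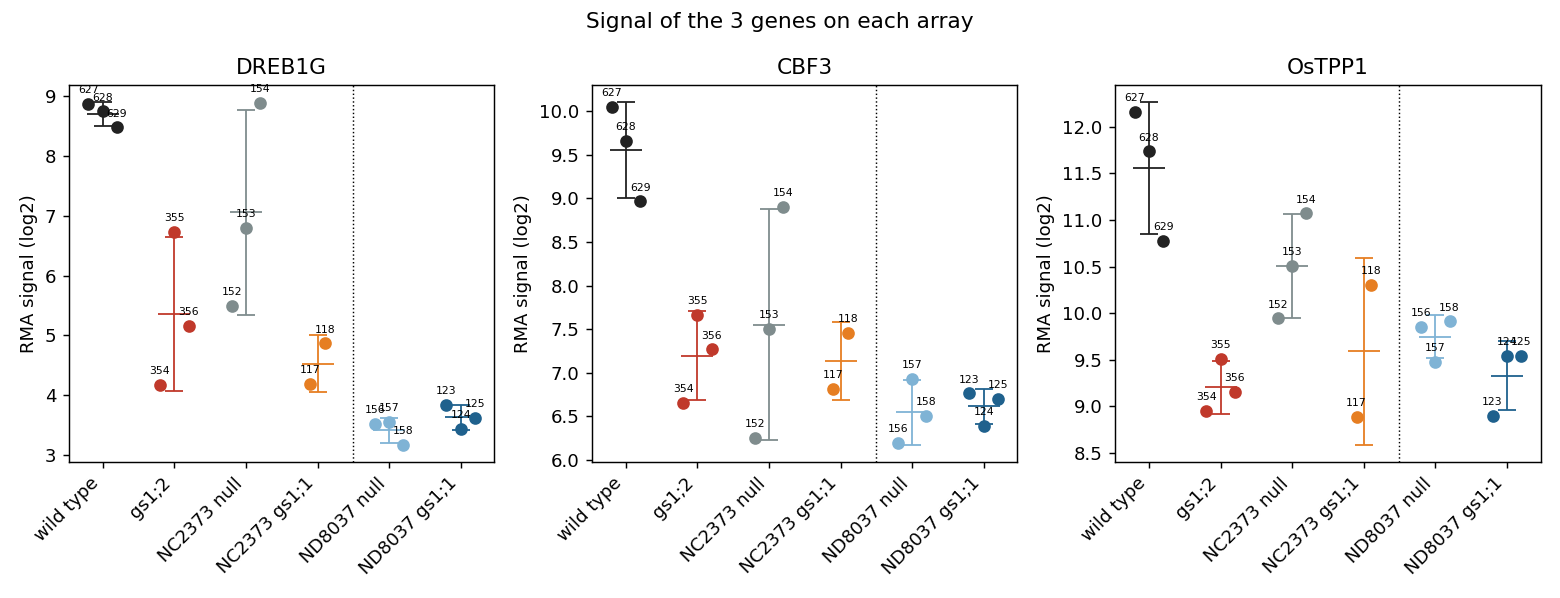
RMA signal (log2) of DREB1G, CBF3 and OsTPP1 on each of the 17 arrays, with the sample numbers, the group mean (long bar) and the SD (short bars), and the dotted line separates the 2 array sets, whose levels cannot be compared. The mutant samples lie below all wild-type samples for each gene, and the 3 NC2373 null samples spread from 5.49 to 8.88 for DREB1G.

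Group means put wild type first for each gene. DREB1G averaged 8.70 ± 0.20 (SD, n = 3) in wild type, 7.06 ± 1.71 (n = 3) in NC2373 null, 5.36 ± 1.29 (n = 3) in gs1;2 and 4.53 ± 0.48 (n = 2) in NC2373 homozygotes. Each of these groups overlapped with the next in the order. CBF3 averaged 9.55 ± 0.55 in wild type, 7.55 ± 1.32 in NC2373 null, 7.19 ± 0.51 in gs1;2 and 7.14 ± 0.45 in NC2373 homozygotes. Wild type did not overlap with the null, and the 3 lower groups could not be ranked by their samples. OsTPP1 averaged 11.56 ± 0.71 in wild type, 10.50 ± 0.56 in NC2373 null, 9.59 ± 1.00 in NC2373 homozygotes and 9.20 ± 0.28 in gs1;2, so the last groups came in the opposite order to that of DREB1G, and again neighbours overlapped. In the ND8037 set the means of null and homozygotes were 3.42 ± 0.21 and 3.63 ± 0.20 for DREB1G, 6.55 ± 0.37 and 6.62 ± 0.20 for CBF3, and 9.75 ± 0.23 and 9.33 ± 0.37 for OsTPP1.

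Against wild type, gs1;2 was lower in DREB1G by 3.34 on the log2 scale, coded as -3.34 (SE 0.661), or 10.1-fold. CBF3 differed by -2.36 (SE 0.486), or 5.13-fold, and OsTPP1 by -2.35 (SE 0.383), or 5.11-fold. Among the 57258 probe sets these were the 7th, 30th and 31st lowest differences of that comparison. For all 3 genes the groups did not overlap, as they did not, in the same direction, for 11.7% of all probe sets. The genes were chosen on this comparison, so these values carry no test.

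Against NC2373 null the picture was uneven. OsTPP1 was lower in gs1;2 by 1.30, coded as -1.30 (SE 0.383), with a gap of 0.43 between the groups, the only 1 of the 3 genes whose groups were apart in this comparison, in which 15.0% of all probe sets were apart in that direction. DREB1G differed by -1.70 (SE 0.661) and CBF3 by -0.36 (SE 0.486), with overlapping samples. These differences depended on single null samples. Without sample 154 the DREB1G difference was -0.79 and that of CBF3 changed sign to 0.32, and without sample 152 they were -2.48 and -1.0.

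The controls themselves differed. NC2373 null was lower than wild type by 2.00 in CBF3 (-2.0, SE 0.486), and these groups did not overlap, as was the case in that direction for 8.26% of all probe sets. It differed by -1.64 (SE 0.661) in DREB1G and by -1.05 (SE 0.383) in OsTPP1, where the samples overlapped. The DREB1G value moved to -2.55 without null sample 154 and to -0.86 without null sample 152. The 3 comparisons share samples with each other, so their values are set side by side here and are not separate evidence.

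**Figure D2:**
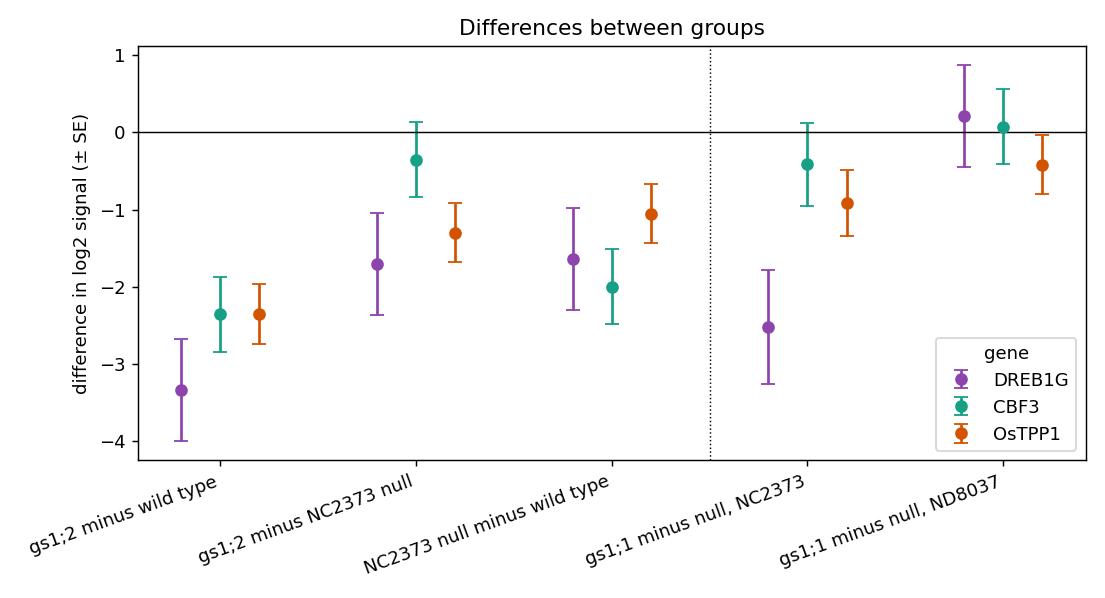
Difference in log2 signal between groups for DREB1G, CBF3 and OsTPP1, with the SE of the fit, where comparisons left of the dotted line were known when the genes were named and carry no test. The differences of gs1;2 from wild type run from -3.34 to -2.35, and CBF3 lies near 0 (-0.36) when gs1;2 is set against NC2373 null.

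The loss of OsGS1;1 was tested in each line with limma, with p-values adjusted over all probe sets. In NC2373, 0 of the 3 genes passed an adjusted p of 0.05, where 7.65% of all probe sets did, and 2 of the 3 had an unadjusted p below it. With an intensity trend and a robust prior 0 passed as well, here, in ND8037, in the mean and between lines. DREB1G came nearest: homozygotes differed from their null by -2.53 (SE 0.739, adjusted p = 0.0502), with a 95% interval of -4.10 to -0.95. Both homozygote samples lay below all 3 null samples by at least 0.63, as happened in that direction for 20.0% of all probe sets. The call depended on single samples. Without sample 152 the difference was -3.31 (adjusted p = 0.0166), without sample 154 it was -1.61 (adjusted p = 0.1232), and without homozygote sample 117 it was -2.19 (adjusted p = 0.2466). When probe sets of low signal were left out it passed (adjusted p = 0.0374). Over all alternatives the adjusted p ran from 0.0166 to 0.2466. CBF3 differed by -0.42 (SE 0.543, adjusted p = 0.7517, 95% interval -1.57 to 0.74) and OsTPP1 by -0.92 (SE 0.429, adjusted p = 0.2369, 95% interval -1.83 to -0.001), both with overlapping samples.

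In ND8037, 0 of the 3 genes passed, against 9.08% of all probe sets, and 0 had an unadjusted p under 0.05. The groups overlapped for all 3, where 16.5% of all probe sets were apart with the homozygotes lower and 11.9% with the homozygotes higher. DREB1G differed by 0.22 (SE 0.661, adjusted p = 0.8832, 95% interval -1.19 to 1.63). CBF3 differed by 0.07 (SE 0.486, adjusted p = 0.9516, 95% interval -0.96 to 1.11) and OsTPP1 by -0.42 (SE 0.383, adjusted p = 0.5500, 95% interval -1.24 to 0.40). The intervals still allow more than a doubling of DREB1G or more than a halving of OsTPP1. Their SE comes from a variance pooled over all 6 groups. For DREB1G the SD was 0.21 and 0.20 in the ND8037 groups but 1.71 in NC2373 null. Its ND8037 interval thus draws on spread from the other array set.

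Averaged over both lines, DREB1G differed by -1.16 (SE 0.496, adjusted p = 0.1443), CBF3 by -0.17 (adjusted p = 0.8153) and OsTPP1 by -0.67 (SE 0.288, adjusted p = 0.1459). None of the 3 passed in limma, where 14.0% of all probe sets did, and 2 had an unadjusted p under 0.05. DREB1G passed without NC2373 null sample 152 (-1.55, adjusted p = 0.0282) and OsTPP1 without NC2373 homozygote sample 118 (-1.02, adjusted p = 0.0358). The test of the difference between the lines gave -2.74 (SE 0.991, adjusted p = 0.2033) for DREB1G, -0.49 (adjusted p = 0.7919) for CBF3 and -0.50 (adjusted p = 0.7197) for OsTPP1. No line difference was called for the 3 genes (1 had an unadjusted p under 0.05), and only 0.00873% of all probe sets had one. DREB1G read 3.18 to 3.84 in ND8037, below that set's array medians of 4.68 to 4.71, and how far a fall could have been measured there, which bears on the ND8037 value, the mean and the line difference, was not tested.

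The 3 genes varied more between samples of a group than most probe sets did. Their within-group SD was 0.937 for DREB1G, 0.687 for CBF3 and 0.539 for OsTPP1, above 99.86%, 99.49% and 98.72% of all probe sets, whose median was 0.141. In 4 of the 6 groups, all of the set that holds wild type, the same sample was highest for all 3 genes and the same sample was lowest. The high samples were wild type 627, gs1;2 355, NC2373 null 154 and NC2373 homozygotes 118. The low ones were wild type 629, gs1;2 354, NC2373 null 152 and NC2373 homozygotes 117. The ND8037 groups did not show this, and in all 10 of 17 samples had the 3 genes on the same side of their group means. These samples share arrays and RNA for the 3 genes, so the coincidence is a description of these extracts. In NC2373 homozygotes (n = 2) a shared highest sample also fixes the lowest one and the side of the group mean. How often other sets of 3 genes coincide in this way was not counted.

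**Figure D3:**
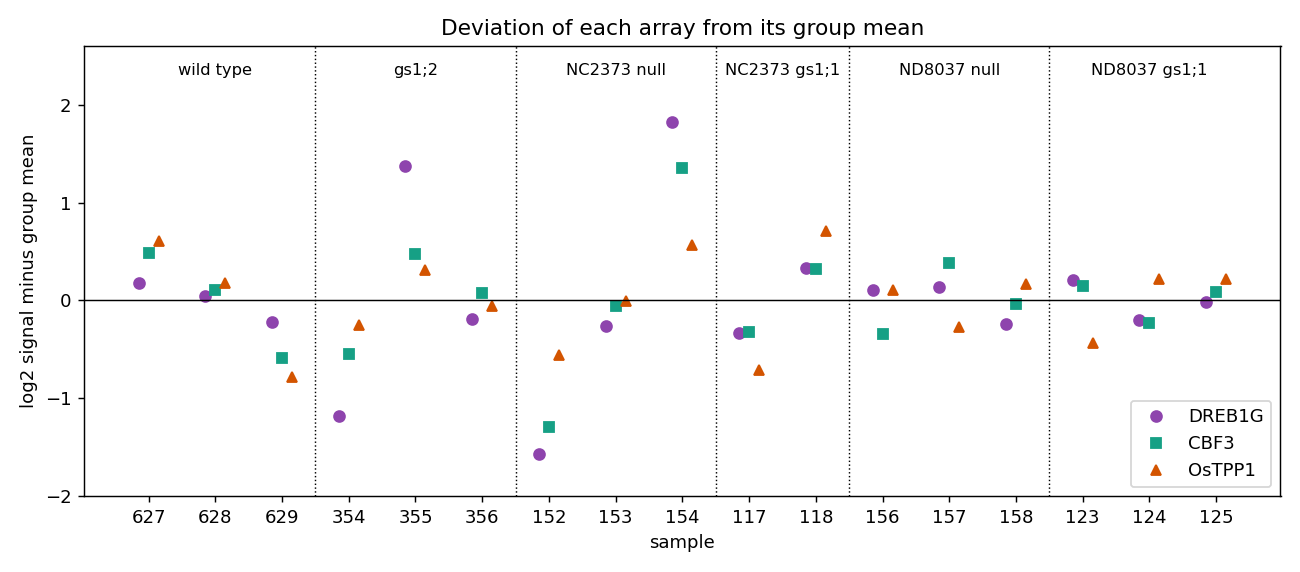
Deviation of each array's log2 signal from its group mean for DREB1G, CBF3 and OsTPP1, by sample number. In wild type, gs1;2 and both NC2373 groups the 3 genes have the same highest and the same lowest sample, whereas the ND8037 samples lie at most 0.43 from their means.

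Other DREB1 genes were followed to see whether the family moved with these members. In this and the following lists each gene is counted by its probe set of highest mean signal, and other probe sets are left out of the counts. The lists were chosen with earlier results of these data known, so their p-values are not independent support. Of 9 loci with a DREB1 or CBF name, 5 had a probe set of their own, and 3 of those were not members. DREB1E (LOC4336721), a further AP2/ERF factor of the group, fell in gs1;2. It read 7.83, 7.83 and 7.28 in wild type, 5.76, 6.03 and 6.18 in gs1;2, 6.16, 6.63 and 7.91 in NC2373 null, and 5.60 and 5.88 in NC2373 homozygotes. The mutant samples lay below all wild-type samples, and the difference was -1.66 (SE 0.306, adjusted p = 0.0084 by limma), in a comparison where 2.37% of all probe sets were called lower. The call held when each sample was left out in turn (adjusted p 0.0062 to 0.0412). Against NC2373 null the difference was -0.91 (adjusted p = 0.0719), and between homozygotes and null in NC2373 it was -1.16 (adjusted p = 0.0513), neither of which passed.

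DREB1B (LOC4347618), a cold-induced factor encoded near CBF3, had its highest and lowest samples in the same places as the 3 members. It read 11.06, 10.70 and 9.27 in wild type, 7.19, 8.99 and 7.75 in gs1;2, 6.31, 8.14 and 9.51 in NC2373 null, and 4.98 and 6.23 in NC2373 homozygotes. Groups gs1;2 and wild type did not overlap, but the difference of -2.37 (SE 0.662, adjusted p = 0.0599) did not pass, and neither did that of NC2373 homozygotes from their null (-2.38, SE 0.740, adjusted p = 0.0638). Against NC2373 null, gs1;2 differed by -0.01. In ND8037, DREB1B and DREB1E differed by -0.12 and -0.02 between homozygotes and null. DREB1C (LOC4339974) behaved differently: gs1;2 and wild type differed by 0.12, while it fell in ND8037 homozygotes by 0.52 (-0.52, SE 0.123, adjusted p = 0.0177) and in the mean of both lines (-0.36, adjusted p = 0.0175). The ND8037 call was lost without homozygote sample 123 or 125 or null sample 158 (adjusted p up to 0.0845), the mean's without NC2373 homozygote sample 117 or 118 (up to 0.0573), and the other 2 probe sets of the gene had signals between 2.32 and 2.95 on every array. Over these 3 genes the median difference of gs1;2 from wild type was -1.66, against 0.022 over all probe sets.

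DREB2 factors bind the same element and are known for drought and heat responses. Of 3 measured, 0 were called in gs1;2 against wild type by limma (1 with an unadjusted p under 0.05, and 1 called with the intensity trend). In that comparison 2.37% of all probe sets were called lower. DREB2D was called lower in NC2373 null than in wild type (-0.62, adjusted p = 0.0464), as 0.486% of all probe sets were, a call that only stood without wild-type sample 629 among the samples left out in turn (adjusted p otherwise 0.0611 to 0.1686). Its signal was only 2.83 to 3.56 in wild type and 2.47 to 2.6 in the null, and a second DREB2D probe set was not called (-0.11, adjusted p = 0.6357).

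The next list had 11 measured genes, regulators known from cold or related stress signalling, some of them upstream of DREB1 genes, and none named ICE1. In gs1;2 against wild type 3 of the 11 fell, where 2.37% of all probe sets were called lower, and 0 rose. The median difference was -0.01. MYB4, a cold-induced MYB factor, fell by 1.14 (-1.14, SE 0.243, adjusted p = 0.0180), and so did a second probe set of it (-1.10, adjusted p = 0.0174). MYB2, a MYB factor of salt, cold and drought responses, fell by 1.12 (-1.12, SE 0.282, adjusted p = 0.0384), and a MAP kinase gene, 1 of 2 loci annotated MPK3 (LOC4332475), fell by 0.73 (-0.73, adjusted p = 0.0358). These calls rested on the full set of samples. MYB4 missed the threshold without wild-type sample 627 or 628 or mutant sample 354 or 356 (adjusted p 0.0506 to 0.0884). MYB2 missed it without any 1 sample but wild type 629 (0.0824 to 0.1271), as did MPK3 (0.0570 to 0.1475). MYB2 was lower still in NC2373 null than in wild type (-1.83, adjusted p = 0.0086), with 7.21, 7.66 and 8.06 in the null against 10.14, 9.35 and 8.93 in wild type and 8.31, 8.31 and 8.42 in gs1;2. Its order of groups thus differed from that of the 3 members, whose null means lay above those of gs1;2. Against NC2373 null LTG1, a casein kinase known from growth at low temperature, was called lower (-0.55, adjusted p = 0.0338), and the call was lost without null sample 152 or mutant sample 355 or 356 (up to 0.1639). MYBS3, a MYB factor of cold tolerance, was not called (0.12, adjusted p = 0.6182), but a second probe set of it was, as higher (0.36, adjusted p = 0.0340), and that one was lower in ND8037 homozygotes (-0.35, adjusted p = 0.0440), where the first differed by 0.23 (adjusted p = 0.2854). In the OsGS1;1 lines 0 of 11 were called in NC2373 by limma (3 with an unadjusted p under 0.05, and 0 with the intensity trend), and SAPK8, a kinase of abscisic acid signalling, was called lower in ND8037 (-0.25, adjusted p = 0.0323) and in the mean of both lines (-0.24, adjusted p = 0.0052). The SAPK8 call in ND8037 was lost without any 1 sample but homozygote sample 125 (up to 0.1202). Of all probe sets 7.65% were called in NC2373, and 4.68% in ND8037 and 7.09% in the mean were called lower.

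Genes that respond to cold, salt or dehydration, among them targets of DREB1 factors, made up a further list. Of 15 measured, limma called 0 in gs1;2 against wild type, where 4 had an unadjusted p under 0.05 and 0 were called with the intensity trend, and the median difference was 0.15. In that comparison 2.37% of all probe sets were called lower, and a count of 0 in 15 is near that share. Against NC2373 null 2 fell and 1 rose, in a comparison where 5.95% of all probe sets were called lower and 4.26% higher. P5CS2, an enzyme of proline synthesis, fell by 1.10 (-1.10, SE 0.223, adjusted p = 0.0074), LTI6A, a small membrane protein induced by low temperature, fell by 0.66 (-0.66, adjusted p = 0.0266), and SNAC2, a NAC factor of stress responses, rose by 0.55 (adjusted p = 0.0489). LTI6A and SNAC2 each lost the call without any of 4 of the 6 samples, null sample 152 and mutant samples 355 and 356 among them (adjusted p up to 0.1304 and 0.2126), while P5CS2 kept it (0.0128 to 0.0482). NAC5, a NAC factor, was not called (-0.11, adjusted p = 0.6861), although another of its probe sets was (-0.51, adjusted p = 0.0416). In the OsGS1;1 lines SALT, a mannose-binding lectin induced by salt and drought, fell in both, where 3.58% of all probe sets were called lower in NC2373 and 4.68% in ND8037. It averaged 13.21 ± 0.36 (SD, n = 3) in the NC2373 null group against 11.94 ± 0.12 (n = 2) in NC2373 homozygotes, and 13.23 ± 0.17 (n = 3) and 12.03 ± 0.64 (n = 3) in ND8037. The differences were -1.28 (SE 0.292, adjusted p = 0.0162) and -1.21 (SE 0.261, adjusted p = 0.0122), the first lost without homozygote sample 117 or 118 (adjusted p 0.0728 and 0.1150), and in gs1;2 against wild type SALT differed by 0.38 (adjusted p = 0.4744). A second SALT probe set was called in both lines too (-1.45, adjusted p = 0.0237, and -1.62, adjusted p = 0.0083). RAB16D, a dehydrin, was called lower in ND8037 (-0.73, adjusted p = 0.0308), a call lost without any of 4 samples, homozygote samples 124 and 125 and null samples 156 and 158 (up to 0.1020).

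Besides OsTPP1, 7 trehalose-6-phosphate phosphatases were measured, and no trehalose-6-phosphate synthase or trehalase was matched by name. In gs1;2 against wild type 1 of the 7 fell, where 2.37% of all probe sets were called lower, and 0 rose. The median difference was -0.33. TPP7, known from germination under water, read 11.12, 10.53 and 9.76 in wild type and 8.46, 8.70 and 8.39 in gs1;2. The groups did not overlap, and the difference was -1.95 (SE 0.400, adjusted p = 0.0147). Without wild-type sample 627 or 628 or mutant sample 356 the adjusted p was 0.0561 to 0.0730, and a second TPP7 probe set of lower signal was not called (-0.34, adjusted p = 0.0948). In NC2373 null TPP7 read 8.40, 8.98 and 9.40, and gs1;2 differed from that group by -0.41 (adjusted p = 0.5752). TPP7 was at 10.16 and 9.49 in NC2373 homozygotes, above all its null samples, as 15.9% of all probe sets were, but the difference did not pass (0.89, adjusted p = 0.2753), and neither did that in ND8037 (0.76, adjusted p = 0.2658). TPP4 and TPP3 differed by -0.98 (adjusted p = 0.0828) and -0.82 (adjusted p = 0.0782) in gs1;2 against wild type, and the other 4 by between -0.33 and 0.20. TPP9 rose in NC2373 homozygotes (0.73, SE 0.160, adjusted p = 0.0124) and in the mean of both lines (0.48, adjusted p = 0.0074), where 6.87% of all probe sets were called higher and 7.09% lower, and TPP10 fell in that mean (-0.42, adjusted p = 0.0132). The NC2373 call of TPP9 was lost without null sample 152 or either homozygote sample (up to 0.0949), and that of TPP10 without homozygote sample 118 (0.0630).

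**Figure D4:**
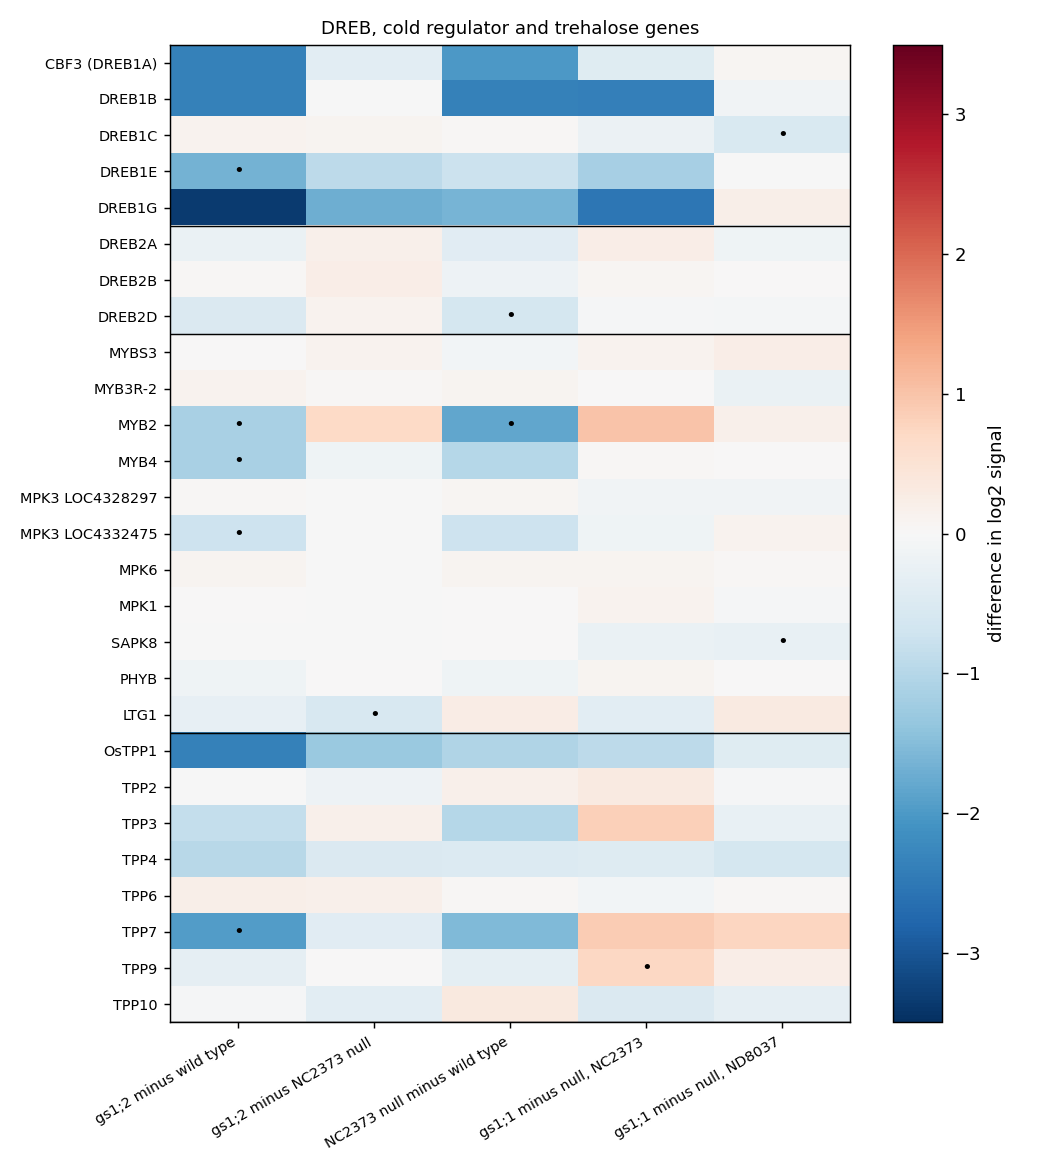
Difference in log2 signal (colour, blue lower and red higher in the first-named group) in 5 comparisons for the DREB1, DREB2, upstream regulator and trehalose genes, with dots where a gene other than the 3 members passed an adjusted p of 0.05. In gs1;2 against wild type the dots are on DREB1E, MYB2, MYB4, MPK3 and TPP7. The 15 target genes are not drawn, and 0 of them were called, where 2.37% of all probe sets were called lower.

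Some of these groups also differed in CCA1 and in markers of green tissue. Of 6 clock genes measured, 0 were called in gs1;2 against wild type by limma (1 with an unadjusted p under 0.05, 0 with the intensity trend), 1 was higher and 1 lower both in gs1;2 against NC2373 null and in NC2373 null against wild type, and 1 was higher in NC2373 homozygotes and 2 in ND8037 homozygotes. In gs1;2 against NC2373 null 4.26% of all probe sets were called higher and 5.95% lower. In gs1;2 against wild type 2.37% were called lower. CCA1, a morning gene of the circadian clock, averaged 8.31 in wild type, 8.03 in gs1;2, 9.33 in NC2373 null and 10.51 in NC2373 homozygotes, and 9.30 in ND8037 null and 10.29 in ND8037 homozygotes. It differed by -0.27 (adjusted p = 0.0774) between gs1;2 and wild type, by -1.30 (adjusted p = 5.77e-07) between gs1;2 and NC2373 null, and by 1.02 (adjusted p = 5.67e-05) between NC2373 null and wild type, where 0.428% of all probe sets were called higher. It rose in the homozygotes of both lines, by 1.18 in NC2373 (adjusted p = 3.04e-05) and 0.99 in ND8037 (adjusted p = 8.64e-05), where 4.07% and 4.4% of all probe sets were called higher, whereas a second CCA1 probe set stayed between 2.86 and 4.42 on every array. PRR1, an evening gene of the clock, was called higher in gs1;2 than in NC2373 null (0.44, adjusted p = 0.0133) and lower in NC2373 null than in wild type (-0.53, adjusted p = 0.0226), and PRR95 was called higher in ND8037 homozygotes (0.38, adjusted p = 0.0399). These 3 calls were lost without null sample 152, without null sample 152 or wild-type sample 627, and without homozygote sample 123 or null sample 157, among others (adjusted p up to 0.0707, 0.1324 and 0.1522). GI, PRR37 and PRR73 were not called in any of these comparisons, though a second PRR37 probe set was lower in gs1;2 than in NC2373 null (-0.54, adjusted p = 0.0404). Of the 6 shoot or leaf markers, 5 were lower in gs1;2 than in NC2373 null, where 5.95% of all probe sets were called lower. Between gs1;2 and wild type 0 were called by limma (2 with an unadjusted p under 0.05, 0 with the intensity trend), although 1 of 3 further probe sets of RCAA1, a Rubisco activase, was lower than in wild type (-1.84, adjusted p = 0.0435). NC2373 null was higher than wild type in 2, RBCS, a Rubisco small subunit (1.93, adjusted p = 0.0340), and PSAG, a photosystem I subunit (0.95, adjusted p = 0.0316), calls lost without wild-type sample 627 or 628 or null sample 153 or 154 (adjusted p up to 0.1395 and 0.1607), that of RBCS also without null sample 152. Further probe sets of RBCS were not called there (1.03, 0.18 and -0.08, adjusted p 0.2478 to 0.8419). A second PSAG probe set was not called there either (-0.05, adjusted p = 0.8949). Nor was it called in gs1;2 against NC2373 null (0.10, adjusted p = 0.5785) or in NC2373 homozygotes (-0.06, adjusted p = 0.8222). In NC2373 homozygotes 4 markers were higher than in the null, and in ND8037 homozygotes 2 were, where 4.07% and 4.4% of all probe sets were called higher. In gs1;2 against NC2373 null PSAG lost the call without any of 5 of the 6 samples, and PORB without any of 3 (adjusted p up to 0.1222 and 0.0796). In NC2373 homozygotes PORB lost it without null sample 152, 153 or 154 and PSAG without null sample 152. The calls in NC2373 also rest on 2 homozygote samples, and a fit without sample 117 or 118 keeps only 1. Without homozygote sample 117 the RBCS difference was 1.74. That of PORB ran from 1.23 to 1.60 with any 1 of the 5 samples left out. The PSAG difference ran from 0.76 to 1.02 without sample 152, 117 or 118. The summed root markers were highest in wild type, as were the 3 genes, and LSI1 and LSI2 weigh most in that sum. LSI2 was called lower in gs1;2 than in wild type (-0.81, adjusted p = 0.0467), a call lost without any of 5 of the 6 samples (up to 0.1738). LSI1 (-0.39, adjusted p = 0.0858) and SCR1 (-0.28, adjusted p = 0.3446) were not called, though gs1;2 lay below all wild-type samples, as for 11.7% of all probe sets. The other root markers had their highest group mean outside wild type, with samples overlapping those of wild type for SHR1, CASP1 and SCR1. SHR1 averaged 7.26 in wild type and 7.29 in gs1;2, and NRT2.3 averaged 6.79 and 7.36. CASP1 was highest in NC2373 null (9.81, against 9.56 in wild type) and SCR1 in NC2373 homozygotes (4.19, against 4.10). Whether harvest time or tissue makeup had a part in the differences of DREB1G, CBF3 and OsTPP1 was not tested.

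The named genes with the most similar profiles over the 11 arrays of wild type, gs1;2 and NC2373 were found by the smallest root mean square difference in log2 signal after centring each profile. Candidates were named probe sets above a lower limit of SD set from that of the member, with no upper limit. For DREB1G, among 100 such probe sets, the closest were DREB1B (0.790), CBF3 (0.888), OsTPP1 (1.02), BHLH148 (1.08) and JAZ13 (1.26). The closest profile to that of CBF3, among 247, was that of BHLH148 (0.349), a bHLH factor of jasmonate and drought responses. CML10, a calmodulin-like protein (0.537), DREB1E (0.556), OsTPP1 (0.562) and ABA8OX1, which breaks down abscisic acid (0.641), followed. For OsTPP1, among 336, they were ABA8OX1 (0.395), BHLH148 (0.452), DREB1E (0.455), CML10 (0.515) and GDH2, a glutamate dehydrogenase (0.549). BHLH148, CML10, DREB1E and ABA8OX1 were thus on the lists of both CBF3 and OsTPP1. A low number here says only that 2 profiles were close on arrays that are the same for both genes.

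BHLH148 (LOC4334060) read 11.38, 10.85 and 9.54 in wild type, 7.80, 8.98 and 8.41 in gs1;2, 8.15, 8.53 and 9.65 in NC2373 null, and 8.30 and 9.00 in NC2373 homozygotes. Its highest and lowest samples in each of these groups were those of the 3 members. ABA8OX1 read 9.89, 9.81 and 8.99 in wild type, 7.78, 7.96 and 8.09 in gs1;2, 8.32, 8.84 and 9.32 in NC2373 null, and 8.02 and 8.43 in NC2373 homozygotes. In gs1;2 its highest sample was 356 and not 355, so the match was not complete in every group. CML10 read 11.43, 10.98 and 10.38 in wild type, 9.38, 9.76 and 9.21 in gs1;2, 9.27, 9.81 and 10.73 in NC2373 null, and 9.11 and 9.00 in NC2373 homozygotes, where sample 117 was the higher, unlike in CBF3. GDH2 was uniform in gs1;2, at 9.08, 9.03 and 9.06, and below all wild-type samples, which read 10.95, 10.30 and 10.39.

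**Figure D5:**
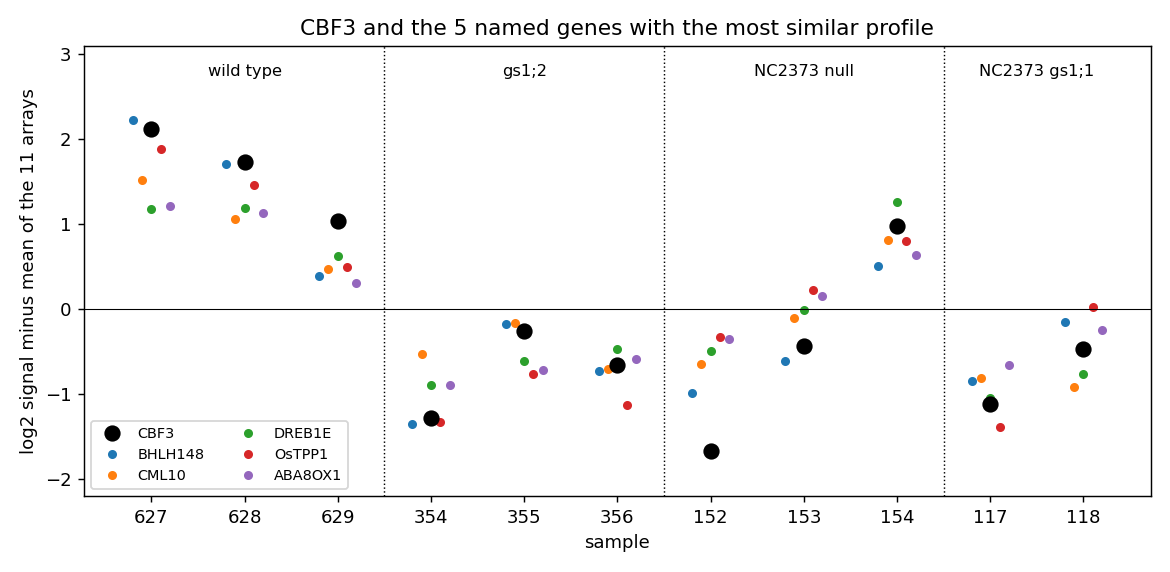
Centred log2 signal of CBF3 (large black points) and of the 5 named genes with the most similar profile on the 11 arrays of wild type, gs1;2, NC2373 null and NC2373 homozygotes. All 6 genes are above their mean in the 3 wild-type samples and in NC2373 null sample 154 and below it in the 3 mutant samples. The 5 genes were picked for closeness to CBF3 on these same arrays, so this likeness follows in part from the choice.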

How the data were processed

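The authors deposited log2 signals, which were summarised by RMA per the submitters' processing notes. Which program ran RMA is not given in the sources. The table has 57381 probe sets, and the 57258 that are not among the 123 Affymetrix controls were all kept for testing, whatever their signal. A model with a mean for each of 6 groups was fitted to the 17 samples with limma 3.58.1 in R 4.3.3 (11 residual and 3.83 prior degrees of freedom). Its two-sided p-values were adjusted by Benjamini-Hochberg across all probe sets, and a call is an adjusted p under 0.05. The number of arrays limits the precision, and the fit was tested on simulated data. Tables and plots used Python 3.11.15, the plots with matplotlib 3.10.9.

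Names came from the platform annotation and from RefSeq (assembly ASM3414082v1), which held the gene of each of the 22436 probe sets annotated to 1 gene. Probe sets annotated to more than 1, 95 in all, got no name. A gene with several probe sets was represented by the one of highest mean signal. Some synonyms fit several loci (MPK3, several JAZ names), so loci are given. A tripeptidyl peptidase with TPP2 as a synonym was left out of the trehalose genes, and no gene matched the gibberellin list. The rule named the 3 members and, from each list, up to 8 genes called in any comparison, those with the largest difference of gs1;2 from wild type first, and the 5 named genes most alike each member. TPP3 and TPP4, and uncalled values of DREB1B, TPP7, BHLH148 and SALT, are given beside them as family or list members. Second probe sets and the uncalled MYBS3, NAC5, GI, PRR37 and PRR73 were added after their values were seen. Members and lists were chosen with earlier results of these data known. Alternatives were quantile normalization within an array set, a filter at the median signal, an intensity trend with a robust prior, a fit of the compared groups only, another probe set of a gene, and leaving out each sample. The planned search for promoter motifs was not run, since no promoter sequence was used here.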

Additional observations from a re-analysis of the deposited data

Results flagged for a closer look

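LTG1 (LOC4330018), the casein kinase known from growth at low temperature, drew attention because every sample moved one way in one OsGS1;1 line and the opposite way in the other. In NC2373 both homozygote samples lay below all null samples (-0.37, adjusted p = 0.2362), and in ND8037 all 3 homozygote samples lay above all null samples (0.32, adjusted p = 0.2219). Of all probe sets, 20.0% were apart with the homozygotes lower in NC2373, and 11.9% with the homozygotes higher in ND8037. How many showed both was not counted. The difference between the lines was -0.68 (SE 0.229) and did not pass in limma (adjusted p = 0.1779). The groups hold 2 or 3 samples, too few for a search for single outlying samples.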

How the results depend on the processing

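Every level of DREB1G, CBF3 and OsTPP1 moved by less than the SD of its group when arrays were quantile normalized within a set. The difference of gs1;2 from wild type kept its sign in all 3 genes under every alternative, with ranges over samples left out of -4.03 to -2.75 for DREB1G, -2.66 to -2.09 for CBF3 and -2.75 to -2.05 for OsTPP1. Against NC2373 null these ranges were -2.48 to -0.79, -1.0 to 0.32 and -1.58 to -1.02, and for NC2373 null against wild type -2.55 to -0.86, -2.68 to -1.35 and -1.44 to -0.75. For homozygotes against null in NC2373 they were -3.31 to -1.61, -1.06 to 0.26 and -1.62 to -0.21, in ND8037 0.10 to 0.32, -0.10 to 0.27 and -0.55 to -0.20, in the mean -1.55 to -0.70, -0.50 to 0.17 and -1.02 to -0.31, and between lines -3.53 to -1.83, -1.14 to 0.19 and -1.21 to 0.21. CBF3 changed sign without NC2373 null sample 154 in the comparisons against NC2373 null (0.32), in NC2373 (0.26), in the mean (0.17) and between lines (0.19), and in ND8037 without homozygote sample 123 (-0.0006) or null sample 156 (-0.10). The OsTPP1 difference between lines changed sign without NC2373 homozygote sample 117 (0.21). DREB1G in NC2373 (-2.53) passed with the filter at the median signal (adjusted p = 0.0374), which tests fewer probe sets. It did not with quantile normalization (0.0521), with the intensity trend (0.0704) or with the compared groups alone (0.2025). That last fit takes its variance from the NC2373 groups only.

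Fits of the compared groups alone, which hold fewer samples, called 615 probe sets in gs1;2 against wild type where all groups gave 2310, 20 against 523 for NC2373 null against wild type, 2189 against 4382 in NC2373, 3213 against 5200 in ND8037 and 102 against 5 between lines, a count that was 1 with quantile normalization and 2 with the filter. Leaving out samples gave 555 to 2817, 1863 to 5518 (5849 with all, gs1;2 against NC2373 null), 118 to 1036, 1525 to 3754, 2075 to 4380, 5260 to 7600 (7991 with all, mean of both lines) and 1 to 22. Called list genes numbered 10 in gs1;2 against wild type (4 with the compared groups alone, 3 to 14 over samples left out), 7 against NC2373 null (2 to 8), 8 for NC2373 null against wild type (1, and 2 to 14), 4 in NC2373 (9 with the filter, 2 with other probe sets, 1 to 8), 7 in ND8037 (11 with the filter, 3 to 5) and 13 in the mean (8 to 13). Of 714 values of named genes under the alternatives 512 kept the call, 202 lost it and 0 changed sign. The members have 1 probe set each, so no other could be tried. No paired analysis was possible because no sample number is shared between groups.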

Other observations

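Of 22 measured genes of jasmonate signalling and wounding, 5 fell and 0 rose in gs1;2 against wild type, with a median difference of -0.21 over the list against 0.022 over all probe sets, and 2.37% of all probe sets were called lower. JAZ13 (LOC4348531) and JAZ3 (LOC4331832), repressors of jasmonate responses, fell (-3.42, SE 0.543, adjusted p = 0.0034 by limma, and -3.33, SE 0.560, adjusted p = 0.0048). Both calls held with each sample left out in turn (adjusted p up to 0.0187 and 0.0260). The list was chosen with earlier results of these data known, so its counts and p-values are not independent support. BHLH148 (-2.19, adjusted p = 0.0111), JAZ4 (LOC4331834, -1.21, adjusted p = 0.0138) and AOS1, an allene oxide synthase of jasmonate synthesis (-1.06, adjusted p = 0.0141), fell too. BHLH148 lost the call without wild-type sample 628 or mutant sample 356 (up to 0.0529), AOS1 without wild-type sample 627 or mutant sample 356 (up to 0.0780), and JAZ4 without wild-type sample 627 or 628 or mutant sample 356 (up to 0.0701). Against NC2373 null 0 of the 22 fell in gs1;2 and 1, JAZ7, rose, with a median difference of 0.08. In that comparison 5.95% of all probe sets were called lower and 4.26% higher, and the samples of JAZ13 and of JAZ3 overlapped.

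NC2373 null was also lower than wild type in 4 of these genes, where 0.486% of all probe sets were called lower. JAZ13 differed by -2.44 (adjusted p = 0.0493), JAZ3 by -2.54 (adjusted p = 0.0469), AOS1 by -0.98 (adjusted p = 0.0469) and JAZ7 by -0.92 (adjusted p = 0.0226), and each call was lost without at least 3 of the 6 samples taken 1 at a time, null sample 152 and wild-type sample 627 among them. The comparisons of gs1;2 and of NC2373 null with wild type use the same wild-type samples, and the limit from the choice of the list holds here too.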
